A study of Mus musculus with 8 samples.

Results

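The genes described here encode the proteins of complement and blood clotting that the liver releases into plasma, together with the inhibitors of both systems and the plasmin system that dissolves clots. They were taken by gene symbol from a fixed list of 39 names in the deposited gene table, which held 19348 genes after reads of rows with the same identifier were summed. All 39 were found, and all 39 had enough reads to be tested.

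Complement and clotting are cascades of plasma proteases made mostly by hepatocytes. In complement, the mannose-binding lectins and their proteases cleave C4 and C2, the resulting convertase cleaves C3, and cleavage of C5 starts the membrane attack complex, in which C5b, C6, C7, C8 and C9 assemble into a pore. In clotting, vitamin K-dependent zymogens and their cofactors lead to thrombin, which turns fibrinogen into fibrin, and plasmin later degrades it. In mice, the activity of the terminal complement pathway in serum is known to be lower in females than in males, and several complement genes are known to respond to interleukin-6 as part of the hepatic acute phase response.

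RNA was sequenced from the livers of mice that were 5 weeks old. There were 5 libraries from mice carrying a knockout of Stab1 and 3 from wild-type mice. The product of Stab1, stabilin-1, is a membrane receptor of liver sinusoidal endothelial cells and some macrophages that clears ligands from blood and is not a hepatocyte protein. The labels give genotype, age and tissue. They do not give the kind of knockout allele, the strain, the sex, or whether each library came from its own animal, so the p-values below measure the spread between libraries, which may be partly technical.

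Levels are given as CPM, the reads of a gene per M (mega) reads of its library after scaling between libraries, and comparisons between genes are made in RPKM, which also divides by gene length. Fold changes are log2 values of knockout over wild type from edgeR's quasi-likelihood test over 12338 genes, and a gene was called at a Benjamini-Hochberg adjusted p below 0.05 over all of them. Stab1 was at 1.37, 0.557, 1.51, 1.38 and 1.27 CPM in knockout libraries 1 to 5, against 56.1, 49.4 and 47.5 CPM in wild-type libraries 1 to 3 (log2 fold change -5.38, SE 0.22, edgeR adjusted p = 3.14e-06). Library totals were 4.85 M reads in knockout library 1, 8.94 to 10.5 M in the other knockout libraries and 10.1 to 10.8 M in wild-type libraries.

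Knockout library 1 stood apart from all others. Its reads of the Y-linked gene Ddx3y came to 62.6 CPM, against at most 0.462 CPM elsewhere, and its Xist level was 0.587 CPM, against 483 to 768 CPM elsewhere. It also held 2939 CPM of Saa1 and 5844 CPM of Hp, the acute phase genes for serum amyloid A and haptoglobin, against 16.3 to 22.6 and 2175 to 2696 CPM in the other libraries. Y-linked reads without Xist, and high acute phase genes, thus occurred in the same single library and cannot be told apart in what follows. Values that it moved clearly are given with and without it. Without it, 12283 genes were tested in 4 knockout and 3 wild-type libraries.

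The upstream sequences of 4 terminal pathway genes are shown because their levels moved together in knockout library 1. Each is the 250 bases before the annotated start, from RefSeq (GRCm38.p6), written 5′ to 3′ on the strand of the gene. Capitals mark matches, on either strand, to 5 short motifs of liver transcription factors: TTCNNNGAA for STAT proteins, TTGCNNAA for C/EBP, GTTAAT for HNF1, CAAAGTCCA for HNF4 and TGTTTNC for FoxA. C6 lies at chr15:4726960-4727209 on the plus strand, C9 at chr15:6445096-6445345 on the plus strand, C8a at chr4:104876399-104876648 on the minus strand and C8b at chr4:104766067-104766316 on the plus strand.
C6: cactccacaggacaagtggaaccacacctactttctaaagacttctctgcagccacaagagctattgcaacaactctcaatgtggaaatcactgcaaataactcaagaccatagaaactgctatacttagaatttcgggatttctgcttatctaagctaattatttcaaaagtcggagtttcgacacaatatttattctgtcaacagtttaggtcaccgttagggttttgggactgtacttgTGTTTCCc
C9: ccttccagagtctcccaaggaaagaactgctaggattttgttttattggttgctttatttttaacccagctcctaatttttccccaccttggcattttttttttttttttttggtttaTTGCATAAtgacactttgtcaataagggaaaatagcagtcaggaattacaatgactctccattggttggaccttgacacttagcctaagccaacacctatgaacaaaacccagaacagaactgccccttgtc
C8a: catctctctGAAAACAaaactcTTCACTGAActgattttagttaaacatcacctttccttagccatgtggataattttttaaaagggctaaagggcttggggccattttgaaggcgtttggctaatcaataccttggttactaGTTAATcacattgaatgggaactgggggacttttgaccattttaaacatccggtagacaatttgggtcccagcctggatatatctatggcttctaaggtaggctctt
C8b: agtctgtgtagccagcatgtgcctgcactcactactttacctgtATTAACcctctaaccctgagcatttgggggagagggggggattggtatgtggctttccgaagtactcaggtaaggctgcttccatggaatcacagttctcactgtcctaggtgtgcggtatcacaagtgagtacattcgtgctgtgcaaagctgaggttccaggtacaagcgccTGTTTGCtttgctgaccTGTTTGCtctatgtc

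No motif occurred in all 4 windows. The STAT letters occurred in the C8a window, as TTCACTGAA starting 228 bases before the start of the gene, and not in the windows of C6, C9 or C8b. The C/EBP letters occurred in the C9 window as TTGCATAA, 132 bases before the start. HNF1 letters occurred upstream of C8a and C8b, and FoxA letters upstream of C6, C8a and C8b. Of the members, 30 had a promoter entry. The STAT letters occurred in 6 of these 30 windows and in 7.02% of 32851 promoters of the same length, the C/EBP letters in 8 of 30 and 9.56%, the HNF1 letters in 8 of 30 and 6.43%, and the FoxA letters in 9 of 30 and 17.8%. The HNF4 letters occurred in 0 of 30 windows and 0.384% of promoters. Such matches describe the letters only and show no binding.

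None of the 39 genes passed the edgeR test between genotypes, and for most of them the 95% interval left out a 2-fold change. With all libraries, edgeR called 0 of 39, against 0.227% of all tested genes. At an unadjusted p below 0.05 there were 2 members (5.13%), against 13.6% of tested genes. They were Mbl1, higher in knockout liver (7.73% of tested genes), and Cpb2, lower (5.9% of tested genes). DESeq2 called 0 of the 37 members to which it gave an adjusted p, against 0.884% of such genes. It gave no p to C6 and C9, so it did not test them with all libraries. The fold changes were positive for 14 and negative for 25 members (64.1% negative, against 50.9% of tested genes), with a median of -0.09, against -0.01 over all tested genes. For 32 of the 39, the 95% interval of the fold change lay within 2-fold in either direction, and for 22 it lay within 1.5-fold.

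Without knockout library 1, edgeR again called 0 of 39, against 0.928% of tested genes. The unadjusted p was then below 0.05 for 12 members (30.8%), against 25.5% of tested genes. Of these, 2 were higher, against 13.2% of tested genes, and 10 were lower, against 12.3%. The median fold change was -0.16, against -0.03 over all tested genes, and 30 members were negative (76.9%, against 52.7% of tested genes). DESeq2 called 5 members in these libraries (12.8%), against 8.61% of the genes it gave an adjusted p. They were Mbl1 and C8g, higher in knockout liver, against 5.52% of such genes, and C4b, C6 and Cpb2, lower, against 3.09%. With no filter on low counts, a setting chosen after seeing the data, edgeR called Cpb2 and C6. These were 2 of 39 members, against 426 of 17342 tested genes. In bulk liver, fewer cells of a type and less RNA per cell cannot be told apart.

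**Figure D1:**
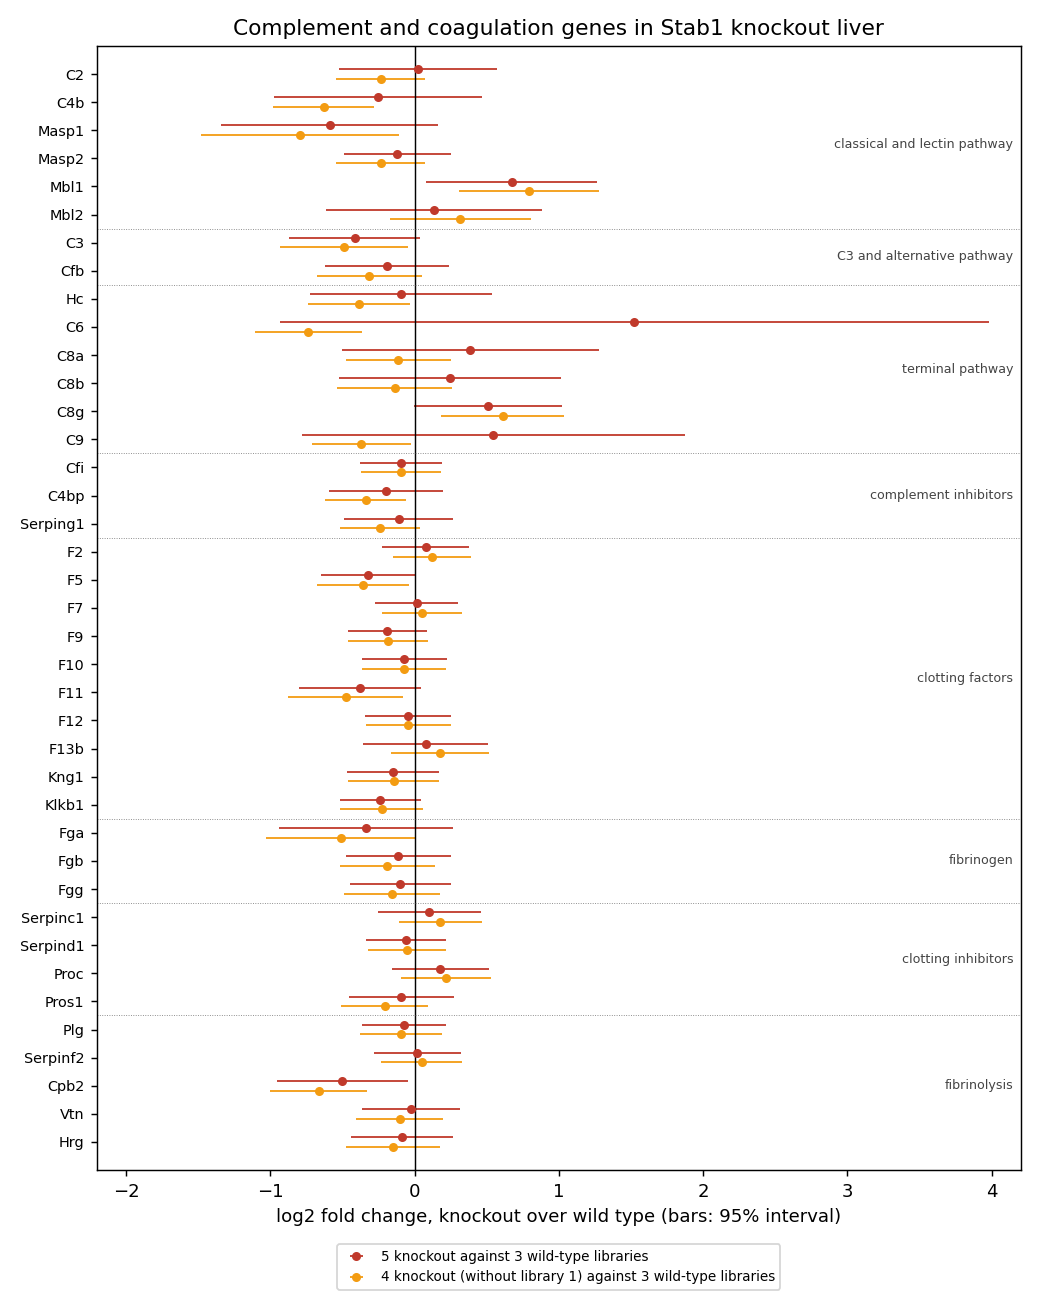
Log2 fold change of each of the 39 genes, knockout over wild type, with its 95% interval from edgeR; red, 5 knockout against 3 wild-type libraries; orange, the same without knockout library 1. The intervals of most clotting genes lie close to 0 in both fits, while those of C6, C9, C8a and C8b are widest with all libraries and move to the left without knockout library 1.

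**Figure D2:**
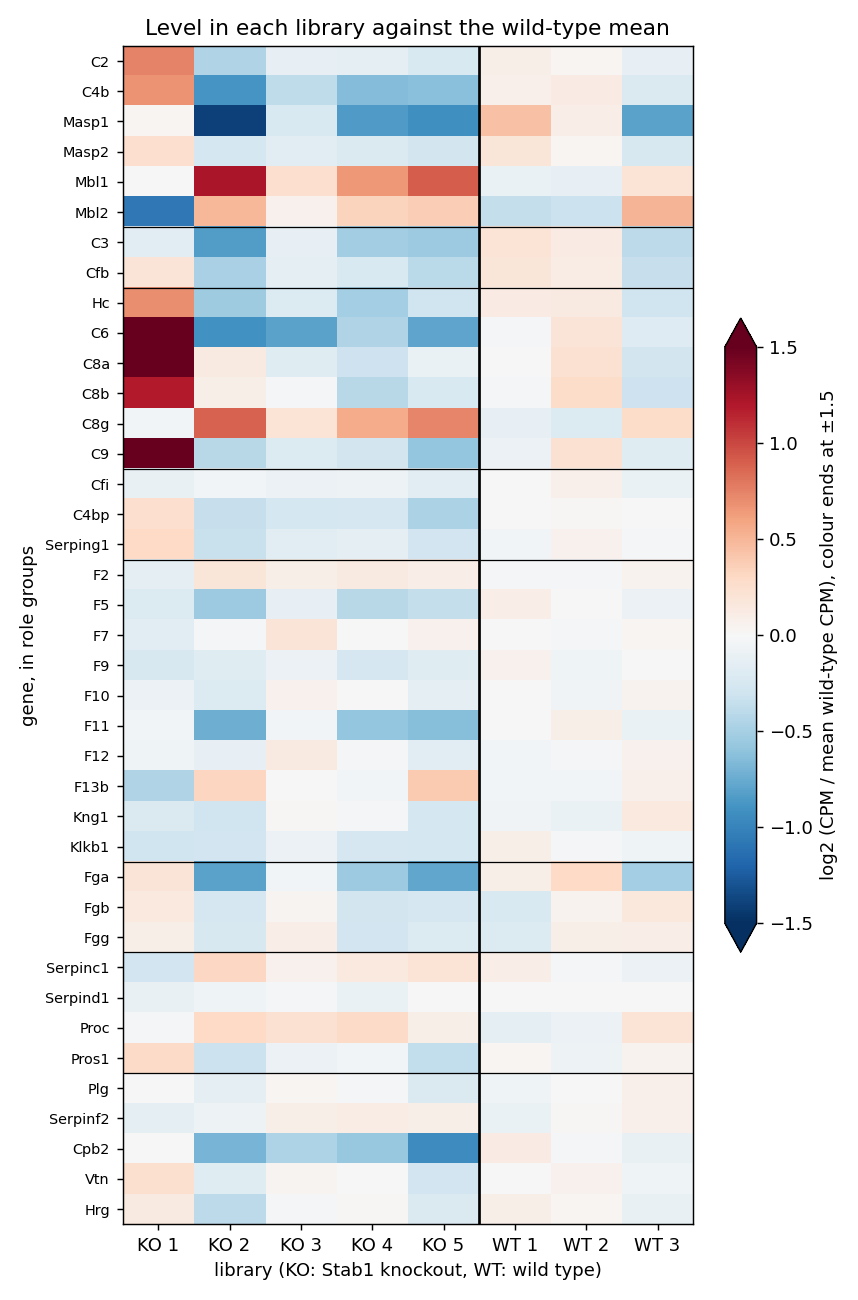
Level of each gene in each library as log2 of CPM over the wild-type mean, with knockout libraries (KO) left of wild-type libraries (WT) and lines between the role groups; the colour scale ends at 1.5 in either direction. Knockout library 1 is the highest of the knockout libraries for C6, C9, C8a, C8b, Hc, C4b and C2, and the lowest for Mbl1, Mbl2 and C8g.

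The first steps of complement held genes that lay on opposite sides of the wild-type level. Mbl1 encodes a mannose-binding lectin, a plasma protein that recognises sugars on microbes. Its level was 210.5, 489.5, 250.1, 331 and 395 CPM in knockout libraries 1 to 5, against 197, 193 and 242 CPM in wild-type libraries 1 to 3. Knockout library 1 lay among the wild-type values and the other knockout libraries lay above all of them. The log2 fold change was 0.67 (SE 0.27, edgeR adjusted p = 0.341) with all libraries and 0.79 (SE 0.22, edgeR adjusted p = 0.0831) without knockout library 1. DESeq2 without that library called it (adjusted p = 0.0124).

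Mbl2 encodes the other mannose-binding lectin and was the most abundant gene of this step, at a mean of 617 RPKM in knockout and 563 RPKM in wild-type libraries. Its values were 288, 853, 635, 765 and 782 CPM in knockout libraries, against 473, 483 and 863 CPM in wild-type libraries. The groups overlapped, since wild-type library 3 was above every knockout library and knockout library 1 was below every wild-type one (log2 fold change 0.13, SE 0.34, edgeR adjusted p = 0.860; without knockout library 1, 0.32, SE 0.22). The ratio of Mbl1 to Mbl2 in RPKM was 0.845, 0.665, 0.456, 0.501 and 0.586 in knockout libraries, against 0.482, 0.462 and 0.324 in wild-type libraries, so that 2 wild-type values lay inside the knockout range.

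C4b encodes the complement component cleaved by the lectin and classical proteases. It was at 1387, 472, 667, 555 and 560.4 CPM in knockout libraries, against 916, 943 and 746 CPM in wild-type libraries. Knockout library 1 was the highest of all and the other 4 were below every wild-type library. The log2 fold change was -0.25 (SE 0.33, edgeR adjusted p = 0.714) with all libraries. Without knockout library 1 it was -0.63 (SE 0.16, edgeR adjusted p = 0.0755; DESeq2 adjusted p = 0.00774). Leaving out knockout library 2 instead gave -0.13. The counts are of uniquely mapped reads, so reads that fit C4b and its near-identical copy C4a equally may be missing. The level of C4b is therefore uncertain.

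Masp1, a protease that travels with the lectins, was at 74.5, 27.8, 62.2, 40.6 and 38.7 CPM in knockout libraries, against 99.1, 78.2 and 41.8 CPM in wild-type libraries. Wild-type library 3 lay within the knockout range. The log2 fold change was -0.59 (SE 0.34, edgeR adjusted p = 0.436), and -0.79 (SE 0.31, edgeR adjusted p = 0.148) without knockout library 1. It ran from -0.87 without wild-type library 3 to -0.30 without wild-type library 1. C2, the protease subunit of the convertase, and Masp2, which cleaves C4 and C2, had fold changes of 0.02 and -0.12, and -0.24 and -0.23 without knockout library 1. In that smaller set, C2 was at 72.3 to 90.3 CPM in knockout libraries and at 90.5 to 105 CPM in wild-type libraries, with no overlap. Reads covered only 44.8 to 45.2% of the length of Masp2 in the libraries, so its counts describe part of the gene.

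C3, the protein on which all complement pathways converge, had the highest length-corrected level after the fibrinogen genes Fgb and Fgg. Its level was 9476, 5987, 9856, 7461 and 7329 CPM in knockout libraries, against 12301, 11659 and 8125 CPM in wild-type libraries. Knockout libraries 1 and 3 lay above wild-type library 3 and below the other wild-type libraries. The log2 fold change was -0.41 (SE 0.20, edgeR adjusted p = 0.386), and -0.49 (SE 0.20, edgeR adjusted p = 0.166) without knockout library 1. Cfb, the protease of the alternative pathway that amplifies C3 cleavage, had a fold change of -0.19, with an interval from -0.62 to 0.24, and -0.31 (SE 0.16) without knockout library 1. Neither gene of this step was called in either fit.

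The terminal pathway depended most on a single library. With all libraries, 5 of its 6 genes had positive fold changes, with a median of 0.45, and without knockout library 1, 5 of 6 were negative, with a median of -0.25. None of the 6 was called by edgeR in either fit. The unadjusted p was below 0.05 for 0 of 6 with all libraries, against 13.6% of tested genes. Without knockout library 1 it was below 0.05 for 4 of 6, against 25.5%. Of these, 3 were lower, against 12.3% of tested genes, and 1, C8g, was higher, against 13.2%.

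C6 encodes the first protein to join C5b in the membrane attack complex, and had the lowest length-corrected level of the 39 genes. It was at 250.4, 10.9, 11.7, 14.9 and 11.8 CPM in knockout libraries, against 20.1, 23.3 and 17.9 CPM in wild-type libraries. Knockout library 1 held 20.3 times the mean of the other knockout libraries, and those 4 were all below the wild-type libraries. The mean was 12.3 ± 1.78 CPM in knockout libraries 2 to 5 (SD, n = 4) and 20.5 ± 2.71 CPM in wild-type libraries (SD, n = 3). The log2 fold change was 1.52 (SE 1.11, edgeR adjusted p = 0.518) with all libraries. It was -0.74 (SE 0.17, edgeR adjusted p = 0.0709; DESeq2 adjusted p = 0.01) without knockout library 1.

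C9, C8a, C8b and Hc followed the same pattern to a lesser degree and are named after their values were seen. C9, which forms the wall of the pore, was at 888, 159, 183, 174 and 142 CPM in knockout libraries, against 199.5, 248 and 186 CPM in wild-type libraries. Its log2 fold change was 0.55 (SE 0.60) with all libraries and -0.37 (SE 0.15) without knockout library 1, where all knockout values were below all wild-type ones. C8a and C8b encode the alpha and beta chains of C8, which insert into the membrane. C8a was at 1096, 424, 343, 313 and 362 CPM in knockout libraries, against 389, 454 and 319.7 CPM in wild-type libraries. C8b was at 641, 299, 276, 210.4 and 239 CPM in knockout libraries, against 275, 339.8 and 227 CPM in wild-type libraries. In both, knockout library 1 was the highest and knockout libraries 2 to 5 overlapped the wild-type range. Their fold changes were 0.39 (SE 0.40) and 0.25 (SE 0.35) with all libraries, and -0.11 (SE 0.16) and -0.14 (SE 0.18) without knockout library 1. Hc, the mouse gene for complement C5, was at 1288 CPM in knockout library 1, 548 to 693 CPM in the other knockout libraries and 648 to 874 CPM in wild-type libraries, with fold changes of -0.09 (SE 0.28) and, without knockout library 1, -0.39 (SE 0.16).

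Other values moved with these 5 genes in knockout library 1. The 14 acute phase genes examined summed to 24636 CPM there, against 10194 to 10754 CPM in the other knockout libraries and 9985 to 10559 CPM in wild-type libraries. The 4 Y-linked genes summed to 151 CPM there, against 0.189 to 0.577 CPM in the other knockout libraries and 0.100 to 0.189 CPM in wild-type libraries. The part of either in the levels of the terminal pathway cannot be told apart.

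C8g did not share this pattern. It encodes the gamma chain of C8, a lipocalin bound to the alpha chain, and was the most abundant terminal pathway gene at 512 RPKM in knockout and 360 RPKM in wild-type libraries. It was at 368, 697, 434, 558 and 630.3 CPM in knockout libraries, against 346, 329 and 459 CPM in wild-type libraries. Knockout libraries 1 and 3 lay within the wild-type range and the others above it (log2 fold change 0.51, SE 0.23, edgeR adjusted p = 0.366). Without knockout library 1 the fold change was 0.61 (SE 0.19, edgeR adjusted p = 0.101; DESeq2 adjusted p = 0.0372).

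**Figure D3:**
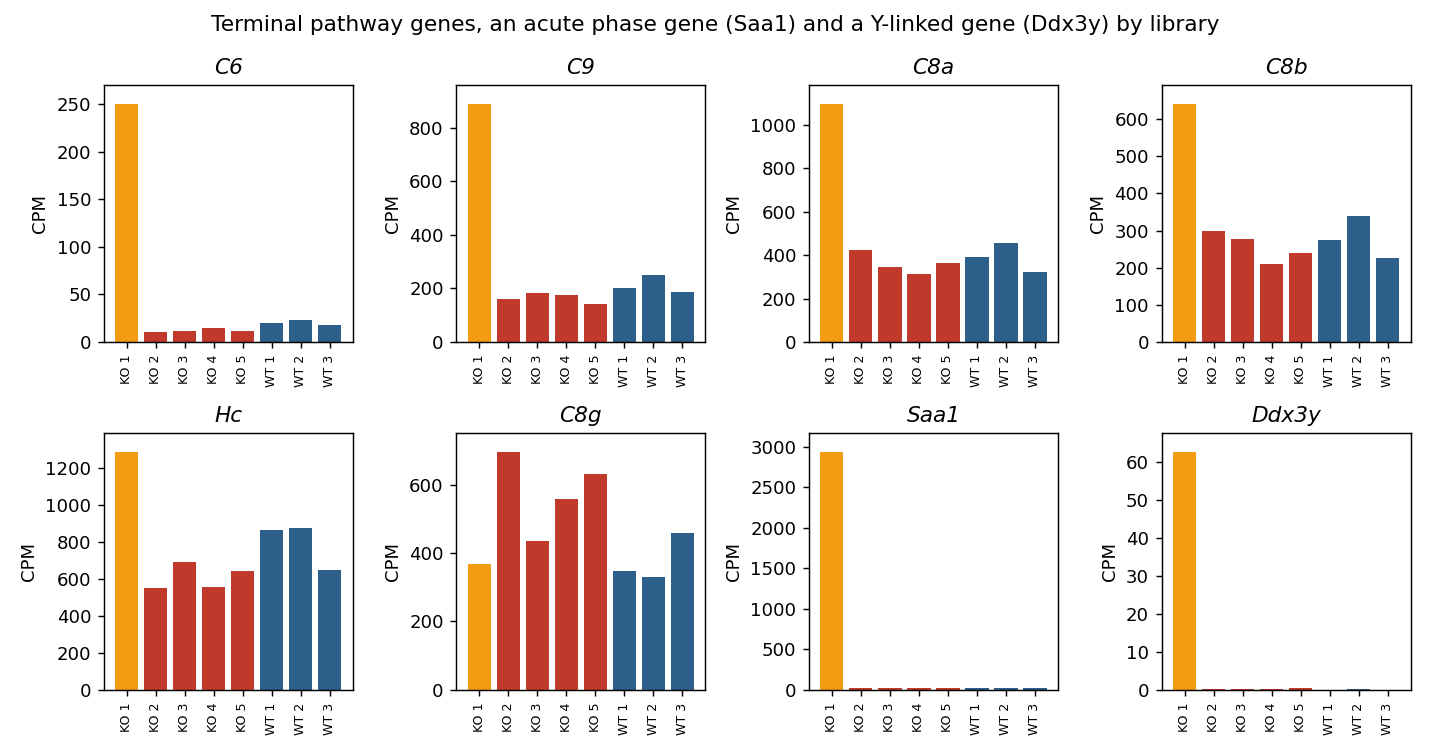
CPM by library for 6 terminal pathway genes, the acute phase gene Saa1 and the Y-linked gene Ddx3y; orange bars are knockout library 1, red bars knockout libraries 2 to 5 and blue bars wild-type libraries. C6, C9, C8a, C8b and Hc are highest in knockout library 1, the one library with high Saa1 and Ddx3y, while C8g is lower there than in the other knockout libraries.

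The 3 soluble inhibitors of complement all had negative fold changes, from -0.20 to -0.09 with all libraries and from -0.34 to -0.09 without knockout library 1. Serping1, the C1 inhibitor, which also restrains kallikrein and factor XII, was the most abundant. It was at 952, 614, 686, 700.4 and 636 CPM in knockout libraries, against 751, 807 and 766 CPM in wild-type libraries. Knockout library 1 was highest and the other 4 were below every wild-type library (log2 fold change -0.11, SE 0.17, and -0.24, SE 0.13, without knockout library 1). C4bp, which binds C4b and blocks the convertase, was at 420 to 491 CPM in knockout libraries 2 to 5 and at 581 to 592 CPM in wild-type libraries, with 697 CPM in knockout library 1. Its fold change was -0.20 (SE 0.18), and -0.34 (SE 0.13) without knockout library 1. Cfi, the protease that inactivates C3b and C4b, varied little, at 654 ± 19.8 CPM in knockout (SD, n = 5) and 698 ± 42.9 CPM in wild-type libraries (SD, n = 3).

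Among the 10 genes of clotting factors and the contact system, F5, F9 and Klkb1 were below every wild-type library in all 5 knockout libraries. These were 3 of the 39 members, or 7.69%, against 3.61% of tested genes, while 0 members were above in every knockout library, against 3.04%. F5 encodes factor V, the cofactor that activates prothrombin together with factor X. It was at 490.2, 387, 517, 424 and 442 CPM in knockout libraries, against 604, 561 and 530.3 CPM in wild-type libraries (log2 fold change -0.32, SE 0.15, edgeR adjusted p = 0.366). Klkb1, plasma prekallikrein of the contact system, was at 178, 179, 206, 184 and 182 CPM in knockout libraries, against 233, 215 and 209 CPM in wild-type libraries (log2 fold change -0.24, SE 0.13, edgeR adjusted p = 0.409). The highest knockout value of F5, 517 CPM, lay just under the lowest wild-type value, 530.3 CPM, and the same values of Klkb1 were 206 and 209 CPM. F9, the X-linked gene of factor IX, averaged 210.0 ± 9.11 CPM in knockout (SD, n = 5) and 239 ± 10.9 CPM in wild-type libraries (SD, n = 3), with a fold change of -0.19 (SE 0.12).

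F11 encodes factor XI, which activates factor IX. Its values were 108, 67.1, 108, 74.2 and 71.1 CPM in knockout libraries, against 111, 119 and 104 CPM in wild-type libraries. Knockout libraries 1 and 3 overlapped the wild-type range and the other 3 lay below it (log2 fold change -0.38, SE 0.19, edgeR adjusted p = 0.391). F2, prothrombin, was the most abundant factor, at 1057 RPKM in knockout and 997 RPKM in wild-type libraries. It was at 1799, 2259, 2119, 2187 and 2143 CPM in knockout libraries, against 1949.6, 1968 and 2062 CPM in wild-type libraries. Knockout library 1 was lowest and the other 4 were highest, with a fold change of 0.08 and an interval from -0.22 to 0.38, or 0.12 without knockout library 1. The other 5 genes, F7, F10, F12, F13b and Kng1, had fold changes from -0.15 to 0.08, or -0.14 to 0.18 without knockout library 1, and all 10 genes of the group had intervals within 2-fold. Reads that fit Kng1 and its close copy Kng2 equally may be missing from the counts.

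Fibrinogen held the 2 highest length-corrected levels of the 39 genes, and its alpha chain gene Fga was lower, at a mean of 1225 RPKM in knockout and 1525 RPKM in wild-type libraries. Fgb, the beta chain, was at 5861, 4443, 5452, 4371 and 4440.5 CPM in knockout libraries, against 4529.9, 5486 and 5906 CPM in wild-type libraries. The groups overlapped (log2 fold change -0.11, interval -0.47 to 0.25, edgeR adjusted p = 0.749; -0.19 without knockout library 1). The chains are encoded by neighbouring genes on chromosome 3 and are joined in equal numbers in the protein. The ratio of Fgg, the gamma chain, to Fgb in RPKM was steady, at 0.914 ± 0.0305 in knockout (SD, n = 5) and 0.907 ± 0.0336 in wild-type libraries (SD, n = 3). The ratio of Fga to Fgb was not. It was 0.471, 0.312, 0.430, 0.379 and 0.316 in knockout libraries, against 0.566, 0.541 and 0.288 in wild-type libraries, so that wild-type library 3 was below every knockout library. Fga itself had a fold change of -0.34 (SE 0.27) with all libraries and -0.51 (SE 0.23) without knockout library 1, while it ran from -0.53 without wild-type library 3 to -0.17 without wild-type library 2.

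The 4 clotting inhibitors included positive and negative fold changes, none called. Serpinc1 encodes antithrombin, the main inhibitor of thrombin and factor X. It was at 2049, 3088, 2614, 2762 and 2876 CPM in knockout libraries, against 2669, 2462 and 2349 CPM in wild-type libraries. Knockout library 1 was below, and libraries 2, 4 and 5 above, every wild-type library (log2 fold change 0.10, interval -0.25 to 0.46, or 0.18 without knockout library 1). Proc, protein C, which inactivates factor V, averaged 583 ± 54.8 CPM in knockout (SD, n = 5) and 515 ± 68.2 CPM in wild-type libraries (SD, n = 3), a fold change of 0.18. Its cofactor Pros1 and the thrombin inhibitor Serpind1 had fold changes of -0.09 and -0.06, or -0.21 and -0.05 without knockout library 1.

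Of the 5 genes of fibrinolysis and plasma binding proteins, Cpb2 differed most. It encodes the carboxypeptidase TAFI, which protects fibrin from plasmin. Its level was 365, 224, 263, 245 and 189 CPM in knockout libraries, against 396, 358 and 337 CPM in wild-type libraries. Knockout library 1 lay within the wild-type range and the other 4 lay below it. The log2 fold change was -0.50 (SE 0.20, edgeR adjusted p = 0.344) with all libraries. Without knockout library 1 it was -0.66 (SE 0.15, edgeR adjusted p = 0.0710; DESeq2 adjusted p = 0.00320).

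Vtn, vitronectin, an adhesive protein that also binds the membrane attack complex, was the most abundant of the group. It was at 2819, 2107, 2455, 2409 and 1963 CPM in knockout libraries, against 2383, 2498 and 2287 CPM in wild-type libraries, with overlapping groups and a fold change of -0.02 (interval -0.37 to 0.32), or -0.10 without knockout library 1. Plg, plasminogen, Serpinf2, the inhibitor of plasmin, and Hrg, which binds plasminogen and heparin, had fold changes of -0.07, 0.02 and -0.09, or -0.10, 0.05 and -0.15 without knockout library 1. All 5 intervals of the group lay within 2-fold.

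Without knockout library 1, the knockout and wild-type values of 12 members did not overlap. The 10 that were below in every knockout library (25.6% of 39, against 8.87% of tested genes) were C2, C4b, C6, C9, C4bp, Serping1, F5, F9, Klkb1 and Cpb2. The 2 that were above (5.13%, against 9.42%) were Mbl1 and F2. The 6 complement genes among the 10 were at their highest of all 8 libraries in knockout library 1, and the 4 clotting and fibrinolysis genes were not.

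Mbl1 and Cpb2 lie on chromosome 14, as does Stab1. Of 415 other tested genes on that chromosome, Mbl1 was 40 tested genes away from Stab1 and Cpb2 was 252 away. Whether sequence around the targeted locus differed between the genotypes was not tested.

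Gene length and the breadth of coverage moved with these results. Breadth, the part of a gene's length with any read, also depends on depth, and knockout library 1 was both the shallowest and the least covered. The mean percent of each tested gene's length that was covered by reads was 59.7, 65.3, 70.1, 67.0 and 66.2 in knockout libraries, against 72.0, 71.9 and 68.2 in wild-type libraries. Wild-type library 3, the least covered of its group, lay inside the knockout range, and it also lay near the knockout libraries for Masp1, C3, Mbl2 and Fga. Across the 39 genes, the fold change without knockout library 1 was lower in longer genes (Spearman correlation -0.51), as it was across all 12283 tested genes (-0.36). With all libraries the correlations were -0.36 over the 39 genes and -0.35 over all tested genes. Genes of 1 set of libraries are not independent replicates, so these correlations are descriptions. Mbl1, C8g and Mbl2 are short, at 923, 1044 and 1069 bases, while C3, C4b and Hc have 5147, 5427 and 5448 bases. Other members went against this order, such as Cpb2 at 1503 bases with a fold change of -0.66 and C9 at 1767 bases with -0.37, both without knockout library 1. The 15 members of at most 2000 bases had a median of -0.10 without knockout library 1, 6 of them positive, against 0.20 over all tested genes of that length, and the 24 longer members had -0.22, against -0.12.

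Taking off the length trend of each library, an adjustment chosen after seeing the data, gave a fold change without knockout library 1 of 0.44 for Mbl1, 0.32 for C8g, -0.48 for C4b, -0.34 for C3 and -0.17 for F5. All 5 were closer to 0 than without the adjustment. The adjustment gave -0.69 for C6. Other members moved farther from 0, to -0.81 for Cpb2, -0.45 for C9, -0.40 for C4bp and -0.31 for Serping1. The median over all members without knockout library 1 was -0.17 with the adjustment and -0.16 without it. The ratio of C8a to C8g in RPKM was 0.856, 0.175, 0.227, 0.161 and 0.165 in knockout libraries, against 0.323, 0.396 and 0.200 in wild-type libraries. Outside knockout library 1, the 4 libraries with the lowest coverage had the 4 lowest ratios.

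With the mean coverage of a library as a covariate and without knockout library 1, the fold changes of C3, Masp1 and Fga turned positive, at 0.03, 0.13 and 0.12. Those of Mbl1, C8g, C4b, C6 and Cpb2 kept their sign, at 0.24, 0.14, -0.31, -0.60 and -0.46, and all adjusted p-values of these 8 genes from edgeR were between 0.693 and 0.989. Genotype and coverage moved together in these libraries, so this fit separates them only in part.

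**Figure D4:**
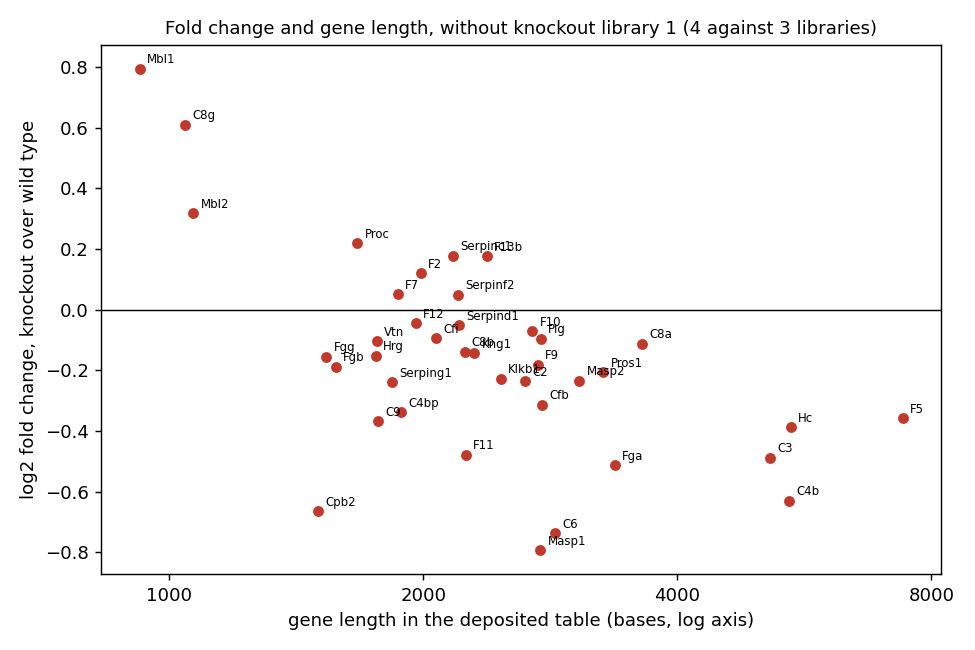
Log2 fold change without knockout library 1 against gene length on a log axis, 1 point for each of the 39 genes. The shortest genes, Mbl1, C8g and Mbl2, are the highest points, and all genes over 4000 bases are below 0.

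**Figure D5:**
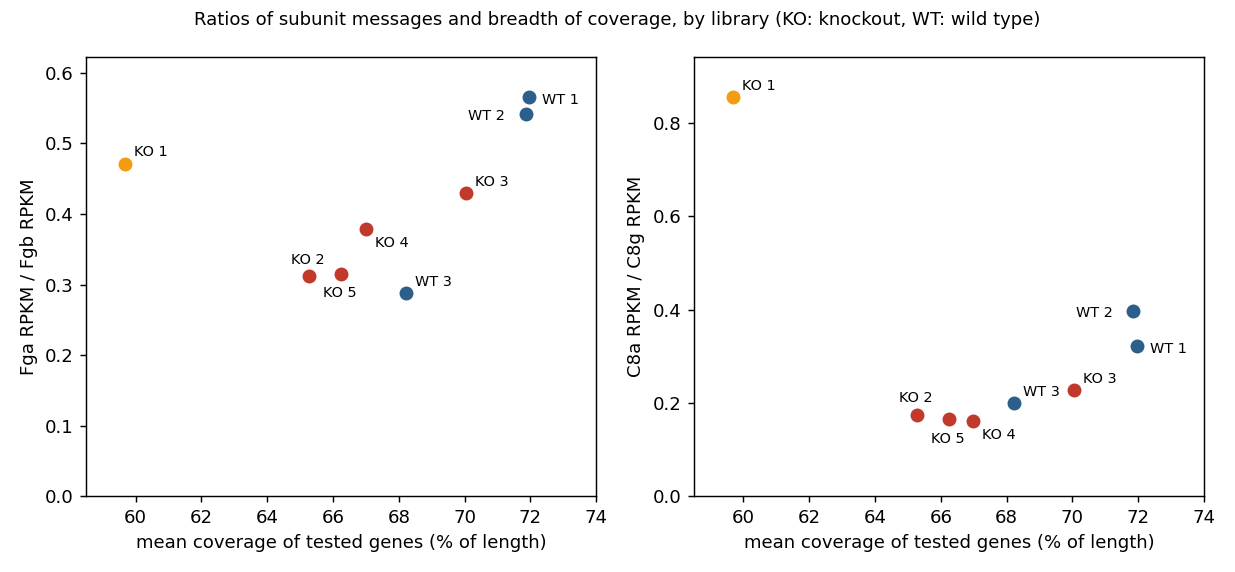
Ratio of Fga to Fgb (left) and of C8a to C8g (right) in RPKM against the mean percent of gene length covered, 1 point per library; knockout libraries are red, knockout library 1 orange and wild-type libraries blue. Wild-type library 3 lies beside the knockout libraries on both plots, and knockout library 1 lies apart from all.

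Other genes of the same systems were examined as lists of 85 genes, of which 70 had enough reads. EdgeR called 0 of them with all libraries and 0 without knockout library 1, against 0.227% and 0.928% of tested genes. The unadjusted p was below 0.05 for 7 of 70 and 17 of 68, against 13.6% and 25.5% of tested genes, and DESeq2 called 0 and 4, against 0.884% and 8.61%. These shares are at or below those over all genes. Their median fold change was 0.00 with all libraries and -0.07 without knockout library 1. By list, with all libraries, it was 0.13 for other complement genes and 0.04 for complement receptors and membrane regulators. It was -0.01 for other clotting and fibrinolysis genes, -0.25 for the vitamin K list and -0.26 for regulators. Of 17 tested other complement genes, 4 were negative, against 50.9% of tested genes. The 22 listed summed to 4497 to 5621 CPM in knockout and 4367 to 4450 CPM in wild-type libraries, with no overlap by a narrow margin.

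C1qa, a chain of C1q, and Cfp, properdin, both made largely by macrophages, had fold changes of 0.47 (SE 0.17) and 0.39 (SE 0.17). Beside them, the summed level of 8 Kupffer cell markers was 437 to 647 CPM in knockout and 378 to 529.9 CPM in wild-type libraries. Of the 8, 1 had an unadjusted p below 0.05, against 13.6% of tested genes, and 5 had positive fold changes. The summed level of 8 neutrophil markers, cells that also hold properdin, was 10.1 to 17.4 CPM in knockout and 4.79 to 11.4 CPM in wild-type libraries. All 4 that were tested were positive (median 0.81), and 2 of the 4 had an unadjusted p below 0.05, against 13.6%. DESeq2 called 1 neutrophil marker, against 0.884% of the genes with an adjusted p. The part of either cell type in the C1qa and Cfp values was not tested.

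Adamts13, the protease that trims von Willebrand factor and is made by stellate cells, had the smallest unadjusted p of these genes. It was at 5.48, 4.79, 6.32, 6.04 and 4.50 CPM in knockout libraries, against 8.31, 8.02 and 8.92 CPM in wild-type libraries, with no overlap (log2 fold change -0.63, SE 0.17, edgeR adjusted p = 0.297). Of the 85 listed genes, 3 were below in every knockout library, against 3.61% of tested genes. The summed level of 8 stellate cell markers was 377 to 595 CPM in knockout and 589 to 630.4 CPM in wild-type libraries. Of the 8, 3 had an unadjusted p below 0.05, against 13.6% of tested genes. The part of these cells in the Adamts13 value was not tested. Pzp, an alpha-macroglobulin that traps proteases, averaged 3821 ± 1019 CPM in knockout (SD, n = 5) and 5321 ± 248 CPM in wild-type libraries (SD, n = 3), with 5386 CPM in knockout library 1 and 2763 to 4226 CPM in the other knockout libraries. Its fold change was -0.48 with all libraries (edgeR adjusted p = 0.356) and -0.64 without knockout library 1 (edgeR adjusted p = 0.0755; DESeq2 adjusted p = 0.00730). Mug2, of the same family, had a fold change of -0.60 (SE 0.21), and reads that fit it and Mug1 equally may be missing.

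C7, the one membrane attack complex gene outside the 39, was at most at 0.669 CPM in any library and could not be tested. Of 7 genes of the vitamin K cycle and of factor export, Ggcx, the carboxylase that vitamin K-dependent factors need, had the largest change, at 53.1 ± 14.3 CPM in knockout (SD, n = 5) and 81.3 ± 30.0 CPM in wild-type libraries (SD, n = 3), with a fold change of -0.62 (SE 0.27, edgeR adjusted p = 0.358) and wild-type library 3 inside the knockout range. Of 12 regulators, 9 had negative fold changes, against 50.9% of tested genes, and edgeR called 0, against 0.227%, with 0 at an unadjusted p below 0.05 and 0 called by DESeq2. Hnf4a, a main activator of clotting factor genes in hepatocytes, had a fold change of -0.28, and Il6ra and Il6st, the chains of the interleukin-6 receptor, had -0.38 and -0.44.

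The liver identity of the samples was checked on 8 hepatocyte markers, of which 4 had positive and 4 negative fold changes (median -0.01). Their summed level, which Alb dominated, was 95663 to 157678 CPM in knockout and 168535 to 180349 CPM in wild-type libraries. Every knockout library thus lay below every wild-type one in this sum, and knockout library 1 was the lowest of all. The 39 genes took 5.69, 4.02, 5.10, 4.41 and 4.11% of the reads in knockout libraries, against 5.14, 5.43 and 4.71% in wild-type libraries.

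The summed levels of sinusoidal endothelial and of erythroid markers also did not overlap between the genotypes, the erythroid ones by a narrow margin. Those of adipose and mesothelial and of platelet markers overlapped. The 8 sinusoidal endothelial markers, of the cells that make stabilin-1, all had negative fold changes (median -0.29), and their summed level was 222 to 252 CPM in knockout and 277 to 352 CPM in wild-type libraries, with no overlap. These values carry no adjustment for gene length. For Stab2, a marker of 8152 bases, taking off the length trend moved the fold change from -0.24 to -0.10. Erythroid markers summed to 72.8 to 195 CPM in knockout and 67.7 to 72.4 CPM in wild-type libraries, with 6 of 6 tested markers positive (median 0.97). Adipose and mesothelial markers summed to 6.26 to 26.5 CPM in knockout and 6.17 to 8.31 CPM in wild-type libraries, with 3 of 3 tested markers positive (median 1.01). Platelet markers summed to 10.2 to 14.1 CPM in knockout and 13.1 to 14.7 CPM in wild-type libraries. With all libraries, edgeR called 0 of these 4 lists' markers, against 0.227% of tested genes, and DESeq2 called 0, against 0.884%. The unadjusted p was below 0.05 for 2 of 8 endothelial, 3 of 6 erythroid, 2 of 3 adipose and mesothelial and 1 of 4 platelet markers tested. The share over all tested genes was 13.6%. Without knockout library 1, edgeR again called 0, against 0.928%. DESeq2 called 1 endothelial marker, lower in knockout liver, against 3.09% of the genes with an adjusted p. It called 3 erythroid and 2 adipose and mesothelial markers, higher, against 5.52%. The part of these cell types in the levels of the 39 genes was not tested.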

How the data were processed

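Counts of reads per gene in 5 Stab1 knockout and 3 wild-type liver libraries were deposited by the authors in 1 table of 19464 rows. Per the file headers, the counts are of uniquely mapped reads, and beside them stand RPKM and a coverage percent, the part of a gene's length with reads. The deposited RPKM values equalled those recomputed from counts, totals and gene lengths. Total RNA was column-purified and libraries were prepared by Illumina's usual procedure, per the labels' protocols. Not given in the sources used here are the aligner, build, annotation and strandedness, so reads of overlapping or antisense genes cannot be told apart.

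Reads were summed for 113 identifiers standing on 229 rows. Genes were filtered with filterByExpr, scaled by TMM and tested with edgeR 4.0.16 in R 4.3.3 by the quasi-likelihood F test with no covariate. The SE is the fold change divided by the square root of F. The biological coefficient of variation was 24.8%, and 20.6% without knockout library 1. Tests were checked on counts simulated from the fitted dispersions. The simulation held no library that stood apart, no length trend and no coverage difference, so it does not cover these. Alternatives were each library left out, replicate number as a block, RLE and upper quartile scaling, no filter, DESeq2 1.42.0, and a coverage covariate. A length adjustment, and no filter without knockout library 1, were added after seeing the data.

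The 39 genes, the lists and the alternatives were chosen with earlier results of these data known. Given in every library are members called in either fit or by DESeq2, the 8 with the smallest p, the 4 with the smallest p without knockout library 1, and the most abundant by RPKM in each role group. Of 85 other complement and clotting genes, the 6 with the smallest p are named, except 1 that is not reported here. Further genes named were chosen after their values were seen. All 205 list entries matched, with names from RefSeq (GRCm38.p6), and the table's own build was not matched to it. Replicate numbers did not pair the libraries. Plots used matplotlib 3.10.9 (Python 3.11.15).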

Additional observations from a re-analysis of the deposited data

Results flagged for a closer look

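Of 45 genes examined, 11 members had 1 knockout library far from the other 4. Chance flags about 1 in 20 such groups, but genes of 1 library are not independent. The share flagged over all tested genes was not counted, so the number does not set these genes apart. Leaving out knockout library 1 took the share of all tested genes at an unadjusted edgeR p below 0.05 from 13.6% to 25.5%. In 10 of them knockout library 1 was the high one. In the early steps of complement these were C4b at 1387 CPM (others 472 to 667), C2 at 165 CPM (others 72.3 to 90.3) and Masp2 at 169 CPM (others 118 to 127). In the terminal pathway they were C6 at 250.4 CPM (others 10.9 to 14.9), C9 at 888 CPM (others 142 to 183), C8a at 1096 CPM (others 313 to 424), C8b at 641 CPM (others 210.4 to 299) and Hc at 1288 CPM (others 548 to 693). Among the inhibitors they were C4bp at 697 CPM (others 419.9 to 491) and Serping1 at 952 CPM (others 614 to 700.4). No gene of clotting factors, fibrinogen, clotting inhibitors or fibrinolysis was flagged in that library. The last was Klkb1, at 206 CPM in knockout library 3 (others 178 to 184), a value still below every wild-type library.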

How the results depend on the processing

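The median fold change of the 39 genes was negative under every alternative, from -0.17 to -0.04, and Stab1 was called under all of them. Over all genes, 28 calls became 13 to 114 with 1 library left out (114 without knockout library 1, 93, 15 and 13 without wild-type library 3, 1 and 2), 130 with DESeq2, 1057 with DESeq2 without knockout library 1, 13 with the coverage covariate, 17 with it and without knockout library 1, 97 with the length trend without that library and 426 with no filter without that library. With replicate number as a block, 8 genes and 0 members were called. Same-numbered libraries had correlations of 0.12, -0.15 and -0.15, so the numbers were not read as pairs.

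Members called went from 0 to 5 with DESeq2 without knockout library 1 and to 2 with no filter without it. Other complement and clotting genes called went from 0 to 4 and 1 in those settings. The median of these other genes, 0.00, became -0.0657 to 0.0393 with 1 library left out (lowest without knockout library 1), -0.0806 with the coverage covariate and -0.0924 with the length trend without knockout library 1.

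Several fold changes turned sign, most of them near 0. With each library left out in turn they ran from -0.24 to 0.12 for C2, -0.74 to 1.80 for C6, -0.11 to 0.52 for C8a, -0.14 to 0.40 for C8b, -0.37 to 0.73 for C9, -0.39 to 0.00184 for Hc, -0.0164 to 0.48 for Mbl2, -0.0291 to 0.0515 for F7, -0.0156 to 0.18 for F13b, -0.0262 to 0.0599 for Serpinf2 and -0.10 to 0.0357 for Vtn. For C2, C6, C8a, C8b and C9 the values without knockout library 1 were -0.23, -0.73, -0.10, -0.13 and -0.36 with DESeq2, -0.23, -0.73, -0.11, -0.14 and -0.37 with no filter, and -0.21, -0.69, -0.00176, -0.15 and -0.45 with the length trend, which also gave -0.0105 for F7. The coverage covariate gave -0.40, -1.93, -0.55, -0.42 and -0.90 for these 5 genes and 0.00383 for F12. With it and without knockout library 1, values were -0.0479 for C2, -0.60 for C6, -0.0583 for C8a, -0.15 for C9, 0.0292 for C3, 0.0436 for Cfb, 0.00662 for F10, 0.0337 for F12, -0.0308 for F13b, 0.12 for Fga, 0.0557 for Hrg, 0.13 for Masp1, -0.15 for Mbl2 and 0.0473 for Vtn. The block gave -0.0419 for F13b, 0.00230 for Hc, -0.12 for Mbl2, -0.0374 for Serpinf2 and 0.0346 for Vtn. Upper quartile scaling gave -0.00247 for F7, and the length trend with all libraries -0.0295 for F7, 0.00907 for Hc and -0.11 for Mbl2. The cause was not tested.

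Precision was limited by 5 and 3 libraries, 1 of them shallower than the rest, and by a median SE of 0.17 over the 39 genes, or 0.14 without knockout library 1. The labels give no sex, litter or time of harvest.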
